A study of Mus musculus with 16 samples.

Results

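The comparison described here asks where loss of the endothelin receptor B gene had a different effect in the trunk of the mouse embryo from that in its caudal region. RNA was sequenced from 16 libraries of E11.5 mouse embryos (mid-gestation), in 4 groups of 4 biological replicates: Ednrb-/- trunk, WT trunk (Ednrb+/+), Ednrb-/- caudal region and WT caudal region. The series concerns the surroundings in which pigment cells settle and the uneven pigmented spots of these mice. The submitters call the Ednrb allele a targeted mutation and give neither the strain nor the altered exons, nor whether a trunk and a caudal sample came from 1 embryo. Each library held a whole region with all its cell types, so fewer cells of a type and less RNA per cell cannot be told apart in any value below. For each gene the effect of genotype was the difference Ednrb-/- minus WT on the scale log2(FPKM + 0.5), where FPKM counts fragments relative to the length of the gene and the size of the library. The interaction was the effect in the trunk minus the effect in the caudal region, so a positive interaction means that the Ednrb-/- level, set against WT, was higher in the trunk. The table lists 56748 genes, and every gene that reached 0.5 FPKM in 4 or more libraries was tested, 17205 in all.

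Endothelin receptor B is a G protein-coupled receptor for the endothelins. Endothelin 3 acts through it on neural crest cells, which leave the dorsal neural tube and form melanoblasts (the precursors of pigment cells), glia, and sensory, sympathetic and enteric neurons. Mice without the receptor have white coats with pigmented spots in limited places, and lack ganglion cells in the distal gut. The trunk and the caudal region also differ in maturity, since the mouse axis is laid down from head to tail: neurons and muscle form first in the trunk, while the tail end still holds progenitors of the axis.

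The libraries held between 34883821 and 43444905 reads in listed genes, recovered from the FPKM. Posterior Hox genes matched the region labels: the 12 Hox genes of paralog groups 10 to 13 summed to between 10.92 and 26.0 FPKM in Ednrb-/- trunk, 13.77 and 52.23 FPKM in WT trunk, 252.6 and 282.8 FPKM in Ednrb-/- caudal, and 285.3 and 330.2 FPKM in WT caudal libraries. Ribosomal protein genes took 3.38% to 3.61% of reads in Ednrb-/- trunk, 3.22% to 3.52% in WT trunk, 3.83% to 4.02% in Ednrb-/- caudal and 3.17% to 3.36% in WT caudal libraries. Xist was high and Y-linked Ddx3y low in 1 Ednrb-/- trunk, 2 WT trunk, 0 Ednrb-/- caudal and 1 WT caudal libraries. In 3 further libraries, replicate 3 of both Ednrb-/- groups and replicate 2 of WT caudal, both RNAs reached 5 FPKM.

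Ednrb itself fell in both regions. It had 3.87, 3.89, 4.80 and 3.37 FPKM in Ednrb-/- trunk libraries, against 35.8, 37.0, 41.8 and 40.2 FPKM in WT trunk libraries. Its caudal level was 1.77, 2.55, 3.44 and 1.59 FPKM in Ednrb-/- libraries, against 32.2, 26.2, 30.3 and 33.5 FPKM in WT libraries. The groups did not overlap in either region, and the interaction of 0.36 ± 0.22 (here and below, ± after an interaction is its standard error) did not pass the test (95% interval -0.12 to 0.83, adjusted p = 0.354, limma with Benjamini-Hochberg adjustment over all genes tested, as for every adjusted p here). Of the other endothelin genes, Edn3 (endothelin 3), Edn1 (endothelin 1), Ednra (the A receptor) and Ece1 (an enzyme that cleaves the precursors) passed the filter, and none was called for the interaction, with values between -0.10 and 0.22. Edn3 fell in both regions, by 0.39 in the trunk and 0.29 in the caudal region on the log2 scale.

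The genotype effect differed between regions for 1163 of 17205 genes (6.76%) at an adjusted p under 0.05, of which 1017 were protein-coding. For 650 genes (3.78%) the interaction was positive and for 513 (2.98%) negative. The difference lay mostly in the caudal region: 204 genes (1.19%) were called in the trunk and not in the caudal region, 740 (4.3%) in the caudal region and not in the trunk, 145 (0.843%) in both with the same sign, and 64 (0.372%) in both with opposite signs, while 10 were called in neither. The caudal effect was the larger of the pair in 887 of the 1163 genes. The genotype effect on its own was called for 4321 genes (25.1%) in the trunk and 7164 (41.6%) in the caudal region, and most of these did not differ detectably between regions. Interactions reached 2-fold in 121 genes (0.703%), and 4043 genes had an unadjusted p under 0.05.

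**Figure D1:**
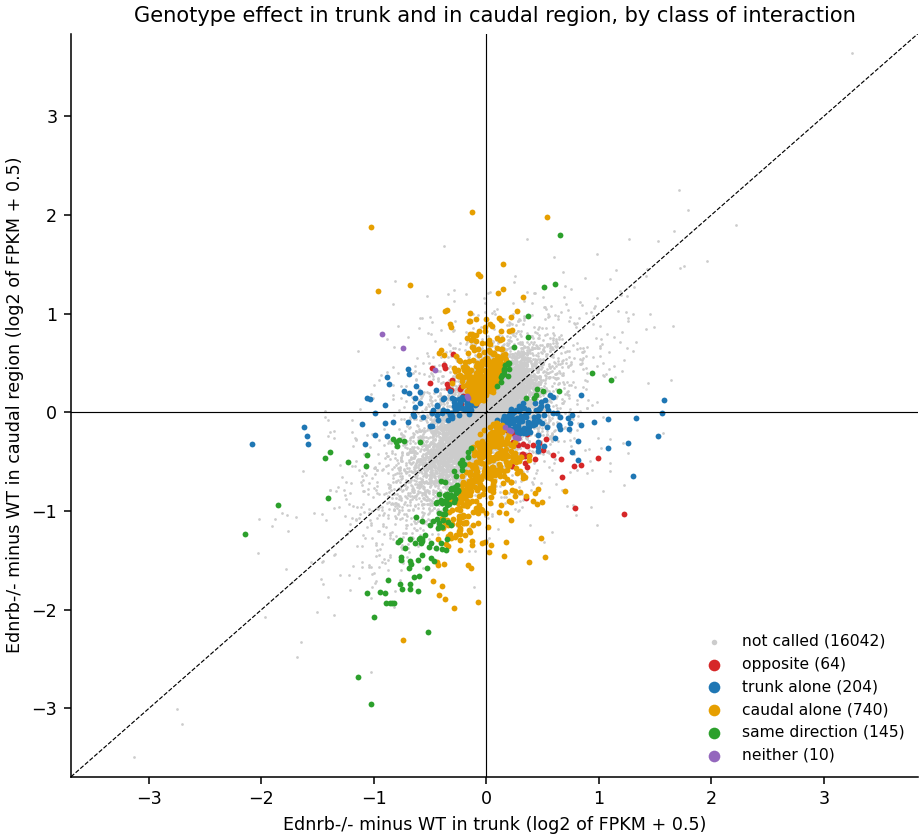
Genotype effect (Ednrb-/- minus WT, log2 of FPKM + 0.5) in the trunk on the horizontal axis and in the caudal region on the vertical axis, 1 point per gene tested, coloured by class with the number of genes in brackets. The dashed line marks equal effects, and the 204 genes called in the trunk alone form a horizontal band, against a fuller vertical band of 740 genes called in the caudal region alone.

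The counts depended on single libraries. Without Ednrb-/- trunk replicate 1 the interaction was called for 609 genes, without Ednrb-/- trunk replicate 3 for 676, without WT trunk replicate 1 for 643, without Ednrb-/- caudal replicate 2 for 671, without Ednrb-/- caudal replicate 4 for 583 and without WT caudal replicate 1 for 672. Without any 1 of the other libraries, between 819 and 1484 genes were called. Scaling moved the balance of directions: positive interactions made up 55.9% of calls on the deposited FPKM, 79.1% (1130 against 299 genes) after rescaling to TPM, and 72.6% (1187 against 449) with voom on whole reads. The rest of the account names mostly genes whose interaction call held without any 1 library. Whether each gene also kept its class in those fits was not tested.

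Genes called in both regions with opposite signs numbered 64, of which 38 (0.221% of genes tested) rose in Ednrb-/- trunk and fell in Ednrb-/- caudal libraries, and 26 (0.151%) did the reverse. Genes of neurons in the first set included Grm2 (a metabotropic glutamate receptor), Ntng2 (netrin G2, an axonal adhesion protein), Pou2f2 and Onecut2 (transcription factors of differentiating spinal neurons) and Clstn2 (calsyntenin 2, a synaptic membrane protein). It also held Fgf6, a growth factor of skeletal muscle. Grm2 had 4.09, 3.50, 4.42 and 3.92 FPKM in Ednrb-/- trunk libraries, against 2.08, 1.75, 2.25 and 2.32 FPKM in WT trunk libraries. Among caudal libraries it had 2.15, 1.09, 2.09 and 1.17 FPKM in Ednrb-/- libraries, against 3.52, 3.33, 4.14 and 3.26 FPKM in WT libraries. The groups did not overlap in either region, and the order of genotypes was turned round between them: the trunk effect was 0.79 (adjusted p = 0.00168), the caudal effect -0.97 (adjusted p = 0.00014) and the interaction 1.76 ± 0.21 (SE, adjusted p = 0.000845).

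Over all genes tested, the libraries of Ednrb-/- and WT did not overlap for 28.1% in the trunk, 37.3% in the caudal region and 17.2% in both. Ntng2 showed the same crossing at a lower level. It had 1.91, 1.67, 1.79 and 1.70 FPKM in Ednrb-/- trunk and 0.717, 0.953, 1.11 and 0.956 FPKM in WT trunk libraries, and 0.891, 0.645, 1.02 and 0.835 FPKM in Ednrb-/- caudal and 1.62, 1.56, 1.58 and 1.67 FPKM in WT caudal libraries. Again no libraries overlapped between genotypes within a region, with effects of 0.67 in the trunk and -0.65 in the caudal region (interaction 1.32 ± 0.14, adjusted p = 0.000278). Fgf6 had 1.52, 1.66, 1.69 and 1.94 FPKM in Ednrb-/- trunk and 0.877, 0.657, 0.626 and 0.775 FPKM in WT trunk libraries, against 0.746, 0.711, 1.11 and 0.623 FPKM in Ednrb-/- caudal and 1.33, 1.52, 1.60 and 1.03 FPKM in WT caudal libraries. Its caudal groups overlapped, 1 Ednrb-/- library standing above the lowest WT library, and its effects were 0.84 in the trunk and -0.53 in the caudal region (adjusted p of the interaction = 0.00117). Pou2f2, Onecut2 and Clstn2 had trunk effects of 0.44, 0.50 and 0.35 and caudal effects of -0.48, -0.38 and -0.87. The trunk call of Clstn2 was close to the threshold (adjusted p = 0.0467).

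Hoxa4 and Hoxb9, homeobox factors that give cells their position along the axis, were also in this set, with trunk effects of 0.32 and 0.33 and caudal effects of -0.42 and -0.42. The genotypes overlapped in the caudal region for Hoxa4 and in both regions for Hoxb9. The trunk call of Hoxb9 was close to the threshold (adjusted p = 0.0467). Slit2, a secreted repellent for growing axons and neural crest cells, had 9.44, 9.28, 8.94 and 9.24 FPKM in Ednrb-/- trunk and 6.50, 6.92, 7.51 and 7.31 FPKM in WT trunk libraries. In the caudal region it had 6.16, 5.32, 6.96 and 5.45 FPKM in Ednrb-/- and 7.02, 6.36, 7.59 and 7.16 FPKM in WT libraries, where the genotypes overlapped. Its effects were 0.36 in the trunk and -0.22 in the caudal region (interaction 0.59 ± 0.10, adjusted p = 0.00619). Of 34 axon guidance genes 32.4% were called (6.76% of all genes tested), 9 with a positive and 2 with a negative interaction, and 2 of these calls were of opposite signs. Positive calls numbered 5 without Ednrb-/- caudal replicate 4. Slc18a2, the vesicular monoamine transporter of sympathetic and other aminergic neurons, rose by 0.47 in the trunk and fell by 0.31 in the caudal region.

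The reverse set, lower in Ednrb-/- trunk and higher in Ednrb-/- caudal libraries, held secreted Wnt signals, a factor of endoderm and floor plate, and genes of membranes and matrix. Wnt5a, a non-canonical Wnt ligand of the outgrowing tail and limb buds, had 7.93, 6.89, 7.90 and 7.06 FPKM in Ednrb-/- trunk and 10.7, 12.3, 9.23 and 10.7 FPKM in WT trunk libraries. Its caudal level was 11.8, 11.3, 11.52 and 11.9 FPKM in Ednrb-/- and 8.89, 11.47, 8.97 and 8.49 FPKM in WT libraries. The trunk groups did not overlap, while WT caudal replicate 2 stood among the Ednrb-/- caudal libraries, and the effects were -0.50 and 0.30 (interaction -0.79 ± 0.13, adjusted p = 0.00372). Rspo3 (R-spondin 3), which strengthens Wnt signalling, had 3.77, 4.01, 4.27 and 3.59 FPKM in Ednrb-/- trunk and 4.57, 5.21, 4.99 and 4.96 FPKM in WT trunk libraries, against 7.45, 8.22, 7.63 and 7.70 FPKM in Ednrb-/- caudal and 6.92, 5.95, 5.23 and 6.33 FPKM in WT caudal libraries. Here no libraries overlapped in either region (interaction -0.63 ± 0.10, adjusted p = 0.0043).

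Pmp22, a peripheral myelin protein also made by mesenchyme, had 8.79, 7.86, 8.81 and 8.90 FPKM in Ednrb-/- trunk and 12.0, 11.9, 9.92 and 11.0 FPKM in WT trunk libraries, against 10.3, 9.43, 10.9 and 10.8 FPKM in Ednrb-/- caudal and 9.21, 7.99, 5.61 and 7.48 FPKM in WT caudal libraries. The genotypes were apart in both regions, with effects of -0.36 and 0.45 (interaction -0.81 ± 0.15, adjusted p = 0.00822). Foxa1, a forkhead factor of gut endoderm and floor plate, was a low gene with a trunk effect of -0.48 and a caudal effect of 0.45 (interaction -0.93 ± 0.18, adjusted p = 0.00969). Its trunk groups were apart and its caudal groups overlapped. Of 19 gut and lung epithelium genes tested, Foxa1 was the 1 that fell in the trunk, where 7 rose (13% and 12.2% of all genes tested). Sil1, an exchange factor for a chaperone of the endoplasmic reticulum, and Lamb1, a laminin chain of basement membranes, had smaller interactions of -0.64 ± 0.10 and -0.34 ± 0.07. Effects in this set were modest: the median was -0.21 in the trunk and 0.23 in the caudal region, and no gene reached a 2-fold interaction.

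**Figure D2:**
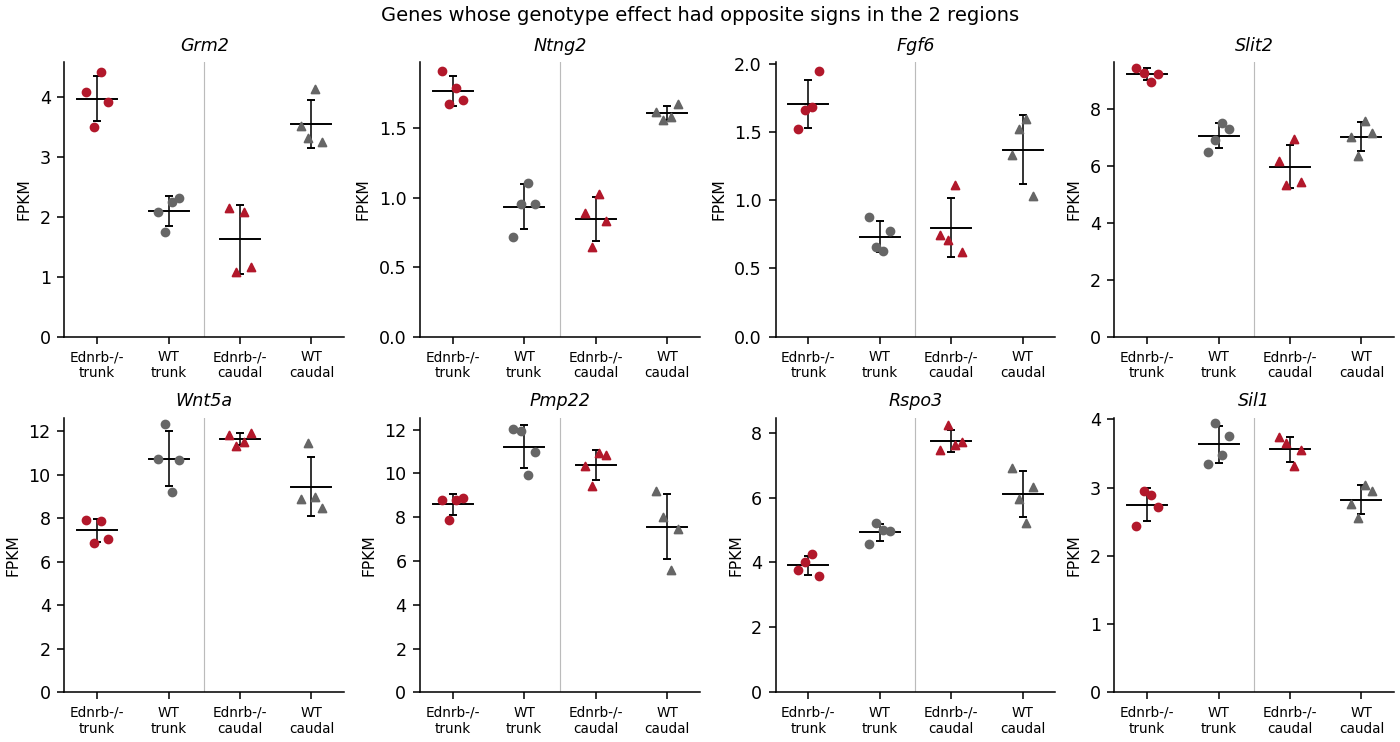
FPKM of 8 genes called in both regions with opposite signs, 1 point per library (circles trunk, triangles caudal region, red Ednrb-/-, grey WT), with the mean as a line and the SD as a bar (n = 4). In the upper row Ednrb-/- lies above WT in the trunk and below it in the caudal region, and in the lower row the order is the reverse.

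Genes called in the caudal region alone split into 378 falls (2.2%) and 362 rises (2.1%) in Ednrb-/-. For 295 of the falls and 339 of the rises the 95% interval of the trunk effect lay within 0.5 of zero on the log2 scale. That margin is wider than the median caudal effect of the rises (0.37), so it does not exclude a trunk effect of that size. Among the falls, Ednrb-/- caudal was the group with the lowest mean in 361 of 378 genes. Falls were larger than rises, with a median caudal effect of -0.61 against 0.37.

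General neuronal genes were among the falls. Of 20 genes used by neurons in general, 8 fell in the Ednrb-/- trunk (13% of all genes tested fell there) and all 20 in the Ednrb-/- caudal region (19.9% of all genes tested). The interaction was positive in each of the 20 and called in 14 (70%, against 3.78% of all genes tested), with 12 in the caudal region alone and a median interaction of 0.85, against -0.01 over all genes. Summed over the list, the level was 718.1 to 814.0 FPKM in Ednrb-/- trunk, 794.0 to 1025 FPKM in WT trunk, 256.6 to 451.7 FPKM in Ednrb-/- caudal and 642.5 to 852.1 FPKM in WT caudal libraries. The count of calls ranged from 8 to 18 over the fits that left out 1 library: it was 8 without Ednrb-/- trunk replicate 1, WT trunk replicate 1, Ednrb-/- caudal replicate 4 or WT caudal replicate 1, and 9 without Ednrb-/- trunk replicate 3 or WT trunk replicate 2. No scaling gave a call in the other direction.

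Nefm, a neurofilament subunit, had 95.1, 90.2, 87.3 and 96.1 FPKM in Ednrb-/- trunk and 65.8, 78.0, 98.5 and 88.4 FPKM in WT trunk libraries, with overlap. Among caudal libraries it had 40.5, 24.1, 49.8 and 27.3 FPKM in Ednrb-/- libraries, against 82.1, 77.8, 95.4 and 87.2 FPKM in WT libraries, with a gap between the groups. The trunk effect was 0.17 (95% interval -0.21 to 0.55), the caudal effect -1.32 (adjusted p = 4.60e-05) and the interaction 1.49 ± 0.25 (adjusted p = 0.00499). Stmn2, a microtubule regulator of axons, had a trunk effect of -0.43 (adjusted p = 0.0867) and averaged 12.4 ± 4.13 FPKM in Ednrb-/- caudal and 35.8 ± 4.82 FPKM in WT caudal libraries (SD, n = 4 each), a caudal effect of -1.54. L1cam and Cntn2, adhesion molecules of growing axons, had caudal effects of -1.24 and -0.60 and interactions of 0.97 ± 0.18 and 0.90 ± 0.17. Gap43, a growth cone protein, fell in both regions, by 0.42 in the trunk and 1.16 in the caudal region (interaction 0.74 ± 0.15).

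Pou3f1, a POU factor of motor neurons and Schwann cells, was called in the caudal region alone. It had 2.97, 2.97, 2.60 and 2.30 FPKM in Ednrb-/- trunk libraries, against 3.12, 3.44, 4.31 and 4.41 FPKM in WT trunk libraries. In the caudal region it had 1.01, 0.338, 0.939 and 0.276 FPKM in Ednrb-/- and 3.76, 2.81, 3.94 and 3.35 FPKM in WT libraries. The trunk groups adjoined each other (-0.42, adjusted p = 0.124), the caudal groups were far apart (-1.85) and the interaction was 1.43 ± 0.27 (adjusted p = 0.00886). Pou4f3, a POU factor of sensory neurons, averaged 1.39 ± 0.319 FPKM in Ednrb-/- trunk and 1.93 ± 0.407 FPKM in WT trunk libraries (SD, n = 4 each). Its caudal level was 0.238, 0, 0.420 and 0.0598 FPKM in Ednrb-/- and 1.93, 1.38, 2.69 and 1.99 FPKM in WT libraries, far apart (interaction 1.53 ± 0.29, adjusted p = 0.00823). Ncan (neurocan), a proteoglycan of the neural matrix, had an interaction of the same sign (1.24 ± 0.27, trunk effect -0.47, caudal effect -1.71).

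Spinal interneuron genes gave 8 positive and 1 negative calls among 25 tested (36%, against 6.76% of all genes tested). Of these 9 calls 6 were in the caudal region alone and 3 in the same direction. Of the 25, 11 fell and 0 rose in the trunk, and 18 fell and 3 rose in the caudal region. Lhx1 and Lhx9, LIM homeobox factors of ventral and dorsal interneurons, had caudal effects of -1.21 and -0.78 and interactions of 1.07 ± 0.24 and 1.24 ± 0.27. Lhx9 is also made in limb buds, and Lhx1 in the early kidney. Spinal motor neuron genes gave 5 positive and 1 negative calls among 14 (42.9%). Of these calls 3 were in the caudal region alone and 2 in the trunk alone. Of the 14, 5 rose and 1 fell in the trunk, and 3 rose and 5 fell in the caudal region. Of all genes tested, 12.2% rose and 13% fell in the trunk, and 21.7% rose and 19.9% fell in the caudal region. The list summed to 119.4 to 120.9 FPKM in Ednrb-/- trunk and 102.1 to 112.1 FPKM in WT trunk libraries, against 142.8 to 167.1 FPKM in Ednrb-/- caudal and 110.4 to 135.2 FPKM in WT caudal libraries. Slc5a7 (the choline transporter) had 0.279, 0.351, 0.263 and 0.280 FPKM in Ednrb-/- caudal libraries, against 1.24, 1.15, 1.40 and 1.17 FPKM in WT caudal libraries. Chat (choline acetyltransferase) had a caudal effect of -0.50, and a trunk effect of 0.26 (95% interval 0.03 to 0.50) that was not called (adjusted p = 0.0965). The genotypes did not overlap for Chat in either region. Olig2, a factor of motor neuron progenitors and the negative call, rose by 0.66 in the trunk and 1.80 in the caudal region (interaction -1.14 ± 0.32, adjusted p = 0.0427, a call lost in 11 of the 16 fits that left out 1 library, with a pseudocount of 0.1 and with voom). Sensory neuron genes gave 6 positive calls and no negative ones among 15 (40%), 4 in the caudal region alone and 2 in the trunk alone. Of the 15, 5 rose and 4 fell in the trunk, and 2 rose and 9 fell in the caudal region. Positive calls numbered 5 for interneurons without Ednrb-/- trunk 1, WT trunk 1 or WT caudal 1, and 3 for motor neurons without Ednrb-/- trunk 2, 3 or 4, WT trunk 1 or 2, Ednrb-/- caudal 4 or WT caudal 1, while for sensory neurons they were 4 to 6 without any 1 library. Nhlh2, a bHLH factor of young neurons, had a caudal effect of -0.81 and an interaction of 0.97 ± 0.20. Epha3, a receptor for ephrins on motor axons and mesenchyme, had trunk and caudal effects of -0.34 and -1.25 (adjusted p in the trunk = 0.0702).

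Calls among autonomic and enteric neurons and among crest glia depended on single libraries. Of 17 genes of autonomic and enteric neurons, 5 were called with a positive interaction (29.4%, against 3.78% of all genes tested) and none with a negative one. Only 1 was called without Ednrb-/- trunk 1, WT trunk 1 or WT caudal 1, 2 without Ednrb-/- caudal 2 or 4 or WT caudal 4, and 3 without Ednrb-/- trunk 2 or 4. Dbh, the enzyme that makes noradrenaline in sympathetic neurons, had 4.37, 3.55, 4.53 and 3.14 FPKM in Ednrb-/- trunk and 4.63, 6.63, 3.82 and 4.60 FPKM in WT trunk libraries, against 0.181, 0.0420, 0.416 and 0.149 FPKM in Ednrb-/- caudal and 3.83, 2.55, 0.721 and 2.87 FPKM in WT caudal libraries. The trunk groups overlapped and the caudal groups did not, with effects of -0.29 (95% interval -0.92 to 0.34) in the trunk and -1.99 in the caudal region. The interaction of Dbh was 1.70 ± 0.42 (adjusted p = 0.0278) and 3.50 with voom. It had an adjusted p of 0.0573, 0.057, 0.0548, 0.0593, 0.0581, 0.0536 and 0.0543 without Ednrb-/- trunk 1, Ednrb-/- trunk 3, WT trunk 1, Ednrb-/- caudal 2, Ednrb-/- caudal 4, WT caudal 1 and WT caudal 4, and of 0.0673 without a filter. Of 17 genes of neural crest glia, 11 fell in the trunk and 13 in the caudal region (13% and 19.9% of all genes tested). The interaction was called for 3 of the 17 (17.6%, against 6.76% of all genes tested). All 3 were positive, and 1 was called without Ednrb-/- trunk 1, 2 or 3, WT trunk 1, Ednrb-/- caudal 4 or WT caudal 1, 3 or 4. The 3 included Itga4, an integrin subunit of migrating crest cells, with 3.46, 2.72, 3.70 and 3.01 FPKM in Ednrb-/- caudal and 6.71, 6.90, 6.03 and 6.58 FPKM in WT caudal libraries, a trunk effect of -0.18 (95% interval -0.35 to -0.01) and a caudal effect of -0.93.

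Mesodermal genes were also among the caudal falls. Pax1 and Pax9, paired-box factors of the sclerotome that forms the vertebrae, both fell there. Pax1 averaged 13.6 ± 0.692 FPKM in Ednrb-/- caudal and 22.1 ± 2.61 FPKM in WT caudal libraries, and Pax9 4.92 ± 0.383 FPKM in Ednrb-/- caudal and 7.24 ± 0.926 FPKM in WT caudal libraries (SD, n = 4 each). Their interactions were 0.86 ± 0.11 (adjusted p = 0.000983) and 0.71 ± 0.14 (adjusted p = 0.00967), and the trunk effects 0.18 and 0.20 did not pass. Of 21 sclerotome and cartilage genes, 4 had positive and 1 a negative call (23.8%, against 6.76% of all genes tested). In the trunk 10 of the 21 fell and 3 rose (13% and 12.2% of all genes tested). In the caudal region 17 fell and 2 rose (19.9% and 21.7%). Positive calls numbered 3 to 6 and negative ones 0 or 1 without any 1 library. Hoxc12, a homeobox factor of the tail end, was listed at 0 in all 8 trunk libraries and had 13.6, 10.9, 10.6 and 11.2 FPKM in Ednrb-/- caudal against 20.9, 28.3, 30.4 and 17.9 FPKM in WT caudal libraries, so that its interaction of 1.02 ± 0.18 is its caudal effect with the sign turned. No genotype effect could be measured in the trunk, and the interaction was not called with voom (adjusted p = 0.725).

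The rises in the Ednrb-/- caudal region included limb, tail and epithelial genes. Tbx4, a T-box factor of the hindlimb bud and of the lung and allantois, had 0.188, 0.243, 0.202 and 0.284 FPKM in Ednrb-/- trunk and 0.910, 0.219, 0.140 and 0.113 FPKM in WT trunk libraries. Among caudal libraries it had 8.26, 6.82, 8.95 and 11.0 FPKM in Ednrb-/- libraries, against 1.06, 2.55, 0.683 and 3.99 FPKM in WT libraries. Its level was low in the trunk of both genotypes, and every Ednrb-/- caudal library stood above every WT caudal library (caudal effect 2.03, adjusted p = 0.000278, and interaction -2.15 ± 0.49, adjusted p = 0.0186). With voom the interaction of Tbx4 was not called (adjusted p = 0.133). Pitx1, which acts with Tbx4 in the hindlimb, had 2.34, 2.38, 1.55 and 2.86 FPKM in Ednrb-/- trunk and 6.92, 5.91, 2.79 and 4.73 FPKM in WT trunk libraries, a trunk effect of -0.96 (95% interval -1.77 to -0.16, adjusted p = 0.0736). In the caudal region it had 10.7, 8.48, 11.6 and 11.7 FPKM in Ednrb-/- caudal and 3.37, 5.32, 1.52 and 10.3 FPKM in WT caudal libraries, the WT values spreading widely and overlapping the others (caudal effect 1.23). Its interaction of -2.19 ± 0.53 (adjusted p = 0.026) had an adjusted p of 0.0552 without Ednrb-/- trunk 3, 0.0566 without WT trunk 1, 0.0556 without Ednrb-/- caudal 4, 0.0533 without WT caudal 1 and 0.0634 without a filter. How much of each hindlimb bud a caudal sample held is not given, and its part in these values was not tested: the 26 limb bud genes summed to 173.5 to 186.9 FPKM in Ednrb-/- caudal and 136.0 to 161.1 FPKM in WT caudal libraries, and 4 of 25 tested were called in each direction. The limb bud genes called were 32% of those tested, against 6.76% of all genes tested. Positive limb bud calls numbered 2 without any 1 of the Ednrb-/- trunk libraries, WT trunk 1, Ednrb-/- caudal 1, or WT caudal 1 or 3, and negative ones 2 without Ednrb-/- trunk 3, WT trunk 1, Ednrb-/- caudal 4 or WT caudal 1.

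Tail progenitor genes were also among these rises. Nkx1-2, a homeobox factor of axial progenitors, had 0.998, 1.5, 0.970 and 1.48 FPKM in Ednrb-/- caudal and 0.507, 0.243, 0.444 and 0.399 FPKM in WT caudal libraries, with no overlap (caudal effect 0.94, interaction -1.03 ± 0.18, adjusted p = 0.00631). Ripply1, a repressor that marks the boundary of forming somites, had 1.54, 1.78, 0.933 and 1.77 FPKM in Ednrb-/- caudal and 0.502, 0.472, 0.741 and 0.201 FPKM in WT caudal libraries, likewise apart (interaction -1.39 ± 0.25, adjusted p = 0.00745). In the tailbud list of 18 tested genes, 6 rose in the trunk (12.2% of all genes tested) and 12 in the caudal region (21.7% of all genes tested), 1 had a positive and 3 a negative call, and the median interaction was -0.54. The positive calls numbered 0 without Ednrb-/- trunk 1, WT trunk 2 or Ednrb-/- caudal 2, 2 without WT trunk 3 and 3 without WT caudal 4, the negative ones 5 without WT caudal 3, and the median was -0.32 without WT caudal 4. The list summed to 46.63 to 57.48 FPKM in Ednrb-/- trunk and 30.79 to 38.98 FPKM in WT trunk libraries, against 97.94 to 128.0 FPKM in Ednrb-/- caudal and 48.56 to 79.44 FPKM in WT caudal libraries. Wfikkn1, a secreted antagonist of growth differentiation factors, had a caudal effect of 1.51. The call for Wfikkn1 (-1.36 ± 0.32) was lost without Ednrb-/- caudal replicate 4 (adjusted p = 0.0508).

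Of 19 gut and lung epithelium genes tested, 7 rose in the trunk and 16 in the caudal region (12.2% and 21.7% of all genes tested). None had a positive interaction call and 5 had a negative one (26.3%, against 2.98% of all genes tested), with a median interaction of -0.47. The 24 genes of that list summed to 83.36 to 96.91 FPKM in Ednrb-/- trunk and 72.39 to 75.42 FPKM in WT trunk libraries, against 133.9 to 165.2 FPKM in Ednrb-/- caudal and 85.73 to 105.1 FPKM in WT caudal libraries. Without 1 library the negative calls numbered 2 to 8: 2 without Ednrb-/- trunk 1 or 3, WT trunk 1, Ednrb-/- caudal 2 or 4 or WT caudal 1, 3 without Ednrb-/- trunk 2, WT trunk 4 or WT caudal 4, and 8 without Ednrb-/- caudal 3. Epcam, an adhesion molecule of epithelia, had 11.6, 13.1, 10.8 and 12.7 FPKM in Ednrb-/- caudal and 6.93, 8.75, 6.24 and 6.29 FPKM in WT caudal libraries, with no overlap. Its trunk effect was 0.14 (95% interval -0.06 to 0.34), its caudal effect 0.74 and its interaction -0.60 ± 0.14 (adjusted p = 0.0185). Imprinted growth genes gave 1 positive and 4 negative calls of 22 (22.7%, against 6.76% of all genes tested). The negative calls numbered 1 without WT trunk 1 or Ednrb-/- caudal 4, and 2 without any 1 of the Ednrb-/- trunk libraries, WT trunk 2 or 4, Ednrb-/- caudal 3, or WT caudal 1 or 3. Among the imprinted genes Dlk1, a membrane ligand related to Delta, averaged 43.5 ± 6.38 FPKM in Ednrb-/- trunk and 42.6 ± 6.21 FPKM in WT trunk libraries (SD, n = 4 each), but had 26.2, 37.4, 29.8 and 35.7 FPKM in Ednrb-/- caudal and 17.9, 16.3, 15.4 and 18.6 FPKM in WT caudal libraries. Higd1a, a mitochondrial protein induced by low oxygen, was the 1 gene called among 28 of glycolysis and hypoxia (interaction -0.43 ± 0.08), although 16 of these rose in the trunk and 18 in the caudal region.

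Ribosomal protein genes were the list with the most negative calls. All 58 were tested and all 58 had an interaction below 0, of which 31 were called (53.4%, against 2.98% of all genes tested), 30 of them in the caudal region alone. In the trunk 9 rose (12.2% of all genes tested rose there), with a median effect of 0.08, and in the caudal region 56 rose (21.7% of all genes tested), with a median effect of 0.36. Rps23, of the small subunit, had 379.6, 429, 386 and 417 FPKM in Ednrb-/- trunk libraries, against 416, 386, 381 and 387 FPKM in WT trunk libraries. In the caudal region it had 477, 513, 488 and 498 FPKM in Ednrb-/- and 330.4, 359.5, 356 and 355 FPKM in WT libraries. The trunk groups overlapped and the caudal groups were apart (trunk effect 0.04, caudal effect 0.50, interaction -0.46 ± 0.07, adjusted p = 0.00249). Rpl32 had an interaction of -0.39 ± 0.06, which was -0.12 and not called after quantile normalization (adjusted p = 0.0977), and Rps29 had one of -0.83 ± 0.11, with the caveat that reads of Rps29 and its processed copies may not be told apart. The direction was the same under every scaling, but the number of calls was 16 after quantile normalization and 24 after rescaling to TPM, and 20 without Ednrb-/- trunk 1, Ednrb-/- trunk 3, WT trunk 1 or Ednrb-/- caudal 4.

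Many ribosomal protein transcripts are known to start within a run of pyrimidines (C and T), through which growth signals regulate their translation. The 30 bases around the annotated start of 4 called genes, 15 before and 15 from the start on, are shown to give that feature beside the measurements (RefSeq sequences on GRCm38.p6, 5′ to 3′ on the gene's strand, a run of at least 5 C or T over the start in capitals).
Rps18: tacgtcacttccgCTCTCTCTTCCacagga
Rpl38: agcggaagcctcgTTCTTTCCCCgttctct
Rps23: gccttcggctgggcggggcttcccgcaatg
Rps28: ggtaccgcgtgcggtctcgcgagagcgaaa
Such a run lay over the start in 7 of the 26 called genes with a sequence and in 14 of all 52 (26.9% of each), against 3330 of all 32851 promoters in the table (10.1%). The share among called genes was thus that of the list, and a run absent from these windows says only that these letters are not in this window.

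**Figure D3:**
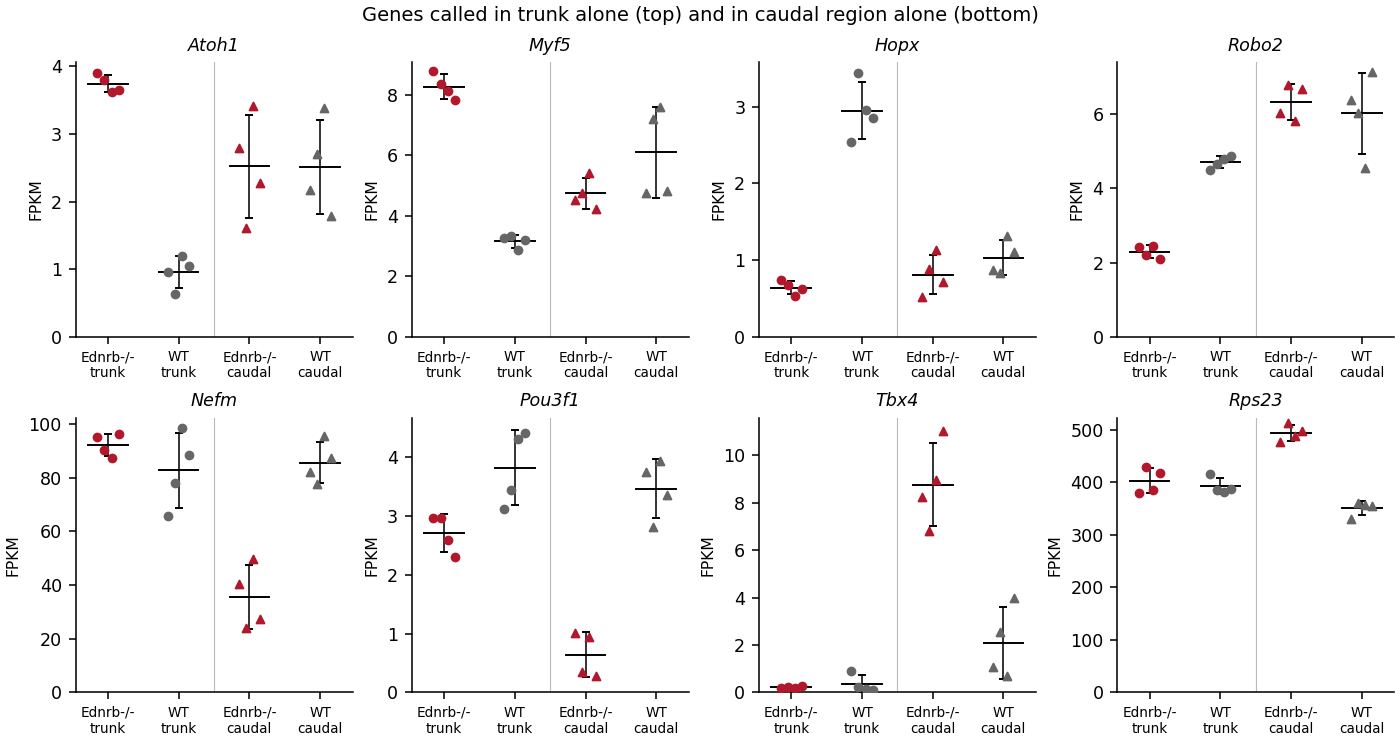
FPKM of 4 genes called in the trunk alone (upper row) and 4 called in the caudal region alone (lower row), 1 point per library (circles trunk, triangles caudal region, red Ednrb-/-, grey WT), with the mean as a line and the SD as a bar (n = 4). In the upper row the genotypes separate on the left of each panel and overlap on the right, and in the lower row they separate on the right.

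Genes called in the trunk alone were fewer: 117 rose (0.68%) and 87 fell (0.506%) in Ednrb-/-. For 102 of the rises and 73 of the falls the 95% interval of the caudal effect lay within 0.5 of zero. That margin is wider than the median trunk effects of the rises (0.37) and falls (-0.34). It therefore does not exclude caudal effects of that size. Regulators of early muscle and of newly formed neurons were among the larger rises. Myf5 and Myf6, bHLH factors that commit cells to skeletal muscle and lie next to each other on chromosome 10, rose 2-fold or more. Myf5 had 8.79, 8.36, 8.13 and 7.84 FPKM in Ednrb-/- trunk libraries, against 3.27, 3.35, 2.86 and 3.19 FPKM in WT trunk libraries. Its caudal level was 4.54, 4.75, 5.43 and 4.24 FPKM in Ednrb-/- and 4.77, 7.20, 7.60 and 4.84 FPKM in WT libraries. The trunk groups were far apart (1.26, adjusted p = 1.52e-05), while the caudal groups overlapped (-0.31, adjusted p = 0.0548), and the interaction was 1.57 ± 0.17 (adjusted p = 0.000419).

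Myf6 had 3.40, 3.41, 3.81 and 4.67 FPKM in Ednrb-/- trunk and 1.11, 1.09, 0.839 and 0.929 FPKM in WT trunk libraries, against 2.52, 2.04, 2.22 and 1.84 FPKM in Ednrb-/- caudal and 2.38, 3.21, 3.42 and 1.76 FPKM in WT caudal libraries. WT trunk was thus the group that stood apart, at the lowest level of the 4 (interaction 1.77 ± 0.21, adjusted p = 0.000845). Actn3, the alpha-actinin of fast muscle fibres, rose by 1.08 in the trunk, with a caudal effect of -0.07 (95% interval -0.33 to 0.19). Among 20 muscle regulators tested, 6 had a positive and 1 a negative call (35%, against 6.76% of all genes tested). Of these 7 calls 3 were in the trunk alone, 1 in the caudal region alone and 3 in the same direction. More of the 20 fell in the trunk (8) than rose (6), against 13% and 12.2% of all genes tested. In the caudal region 10 fell and 5 rose (19.9% and 21.7%). Positive calls numbered 5 to 8 without any 1 library. None of the 18 sarcomere genes listed, among which Actn3 is not, rose in the trunk.

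Proneural factors, which drive progenitors to become neurons, had 9 positive calls and no negative ones among 17 tested (52.9%, against 3.78%), 5 of them in the trunk alone. In the trunk 11 of the 17 rose (12.2% of all genes tested), and in the caudal region 3 rose and 5 fell (21.7% and 19.9%). Atoh1, which specifies dorsal interneurons and is made in sensory epithelia, had 3.90, 3.79, 3.62 and 3.66 FPKM in Ednrb-/- trunk libraries, against 0.957, 0.627, 1.20 and 1.04 FPKM in WT trunk libraries. Among caudal libraries it had 2.79, 1.61, 3.41 and 2.27 FPKM in Ednrb-/- and 2.17, 2.71, 3.39 and 1.78 FPKM in WT libraries. All 4 Ednrb-/- trunk libraries stood above every WT trunk library, while the caudal groups overlapped almost wholly (trunk effect 1.56, 95% interval of the caudal effect -0.39 to 0.39, interaction 1.56 ± 0.26, adjusted p = 0.00495).

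Neurod1, a factor of differentiating neurons, had 14.7, 15.8, 13.5 and 15.2 FPKM in Ednrb-/- trunk and 6.24, 7.69, 8.52 and 7.24 FPKM in WT trunk libraries, with a trunk effect of 0.96 and a caudal effect of -0.10 (interaction 1.06 ± 0.22, adjusted p = 0.0118). Neurog1, which starts sensory neurogenesis, had a trunk effect of 0.65 and an interaction of 0.83 ± 0.17. Hmx1, a homeobox factor of sensory and sympathetic ganglia, had 3.39, 3.90, 3.00 and 5.38 FPKM in Ednrb-/- trunk and 0.999, 0.687, 1.28 and 0.881 FPKM in WT trunk libraries (interaction 1.45 ± 0.31, adjusted p = 0.015). Under the other scalings 9 or 10 proneural factors were called. The number of proneural calls was 5 without Ednrb-/- trunk replicate 1 and 6 to 10 without any 1 other library. In the same trunk libraries 8 of the 20 general neuronal genes fell and none rose. Foxp1, a factor of limb-directed motor neurons, rose by 0.40 in the trunk (interaction 0.52 ± 0.07).

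Of the 12 Hox genes of paralog groups 1 to 4, which pattern the anterior axis, 9 rose in the trunk (12.2% of all genes tested). In the caudal region 3 rose and 3 fell (21.7% and 19.9% of all genes tested). All 12 had a positive interaction, of which 6 were called (50%, against 3.78%), with 3 in the trunk alone, 2 in opposite directions and 1 in the same direction. Other scalings gave 6 to 9 calls, all positive. The calls numbered 3 without Ednrb-/- trunk 1 or 3, WT trunk 1, Ednrb-/- caudal 2 or 4, or WT caudal 1 or 3, and 4 to 7 without any 1 other library. Hoxd3 and Hoxd4, whose annotated spans overlap on chromosome 2 so that their reads may not be told apart, rose by 0.50 and 0.54 in the trunk, with caudal effects of -0.11 and 0.07. Of 15 genes of groups 5 to 9, 2 had a positive call (1 to 5 without any 1 library), and of 12 of groups 10 to 13, 2 had a positive and 1 a negative call (1 or 2 and 0 to 2 without any 1 library). Calls made up 13.3% and 25% of these lists, against 6.76% of all genes tested. Etv4, a target of FGF signalling, rose by 0.51 in the trunk, and 29 FGF genes gave 6 positive calls and 1 negative call, 5 of the 7 in the trunk alone. The 7 calls were 24.1% of the 29, against 6.76% of all genes tested. More of the 29 fell in the trunk (10) than rose (7), against 13% and 12.2% of all genes tested. Positive FGF calls numbered 2 without Ednrb-/- trunk 1 and 3 without Ednrb-/- trunk 3 or WT trunk 1 or 2. Stra6, the retinol uptake receptor, rose by 0.35, and Aldh1a3, an enzyme that makes retinoic acid, fell by 0.69 in the trunk (interactions 0.37 ± 0.08 and -1.08 ± 0.22). Retinoic acid genes gave 4 positive calls and 1 negative call of 14 (35.7%, against 6.76% of all genes tested), and 2 positive calls without Ednrb-/- trunk 1 or 3, WT trunk 4, Ednrb-/- caudal 2 or 4, or WT caudal 1, 3 or 4.

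Genes that guide neural crest cells were measured for their bearing on where melanoblasts settle. Of 39 guidance and survival genes tested, 5 had a positive and 2 a negative call (17.9%, against 6.76% of all genes tested). More of the 39 fell than rose in each region: 9 fell and 4 rose in the trunk (13% and 12.2% of all genes tested). In the caudal region 16 fell and 5 rose (19.9% and 21.7%). Without Ednrb-/- caudal 4 the positive calls numbered 3. Cxcl12, a chemokine that attracts Cxcr4-bearing cells such as melanoblasts, had 44.8, 44.5, 45.4 and 40.9 FPKM in Ednrb-/- trunk libraries, against 34.2, 34.4, 31.4 and 31.4 FPKM in WT trunk libraries. In the caudal region it had 41.0, 41.3, 45.4 and 44.0 FPKM in Ednrb-/- and 51.9, 46.8, 40.8 and 48.3 FPKM in WT libraries. It rose in the trunk by 0.41 with no overlap, and in the caudal region its effect was -0.12 (95% interval -0.26 to 0.01; interaction 0.54 ± 0.09, adjusted p = 0.00489). Robo2, a receptor for the Slit proteins, went the other way: it had 2.42, 2.19, 2.46 and 2.10 FPKM in Ednrb-/- trunk and 4.49, 4.65, 4.80 and 4.87 FPKM in WT trunk libraries, against 6.03, 6.79, 5.82 and 6.68 FPKM in Ednrb-/- caudal and 6.38, 6.04, 4.54 and 7.15 FPKM in WT caudal libraries. Its trunk effect was -0.90 (adjusted p = 3.40e-05), its caudal effect 0.08 (95% interval -0.13 to 0.29) and its interaction -0.98 ± 0.14 (adjusted p = 0.00249). In the trunk, then, the ligand Slit2 rose while the receptor Robo2 fell. Sfrp5, a secreted Wnt antagonist, rose by 1.08 in the trunk, with a caudal effect of -0.37.

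Falls in the trunk alone included genes of matrix, transcription factors and an axon guidance receptor. Hopx, a small homeodomain protein without DNA binding, had 0.735, 0.678, 0.534 and 0.621 FPKM in Ednrb-/- trunk libraries, against 2.54, 3.44, 2.95 and 2.86 FPKM in WT trunk libraries. Its caudal level was 0.519, 0.877, 1.13 and 0.720 FPKM in Ednrb-/- and 0.877, 0.830, 1.32 and 1.11 FPKM in WT libraries. WT trunk stood above the other 3 groups (trunk effect -1.59, interaction -1.35 ± 0.19, adjusted p = 0.00252). Smoc2, a matricellular calcium-binding protein, had 2.12, 1.84, 2.23 and 1.54 FPKM in Ednrb-/- trunk and 6.72, 8.69, 5.95 and 6.02 FPKM in WT trunk libraries, against 3.44 ± 0.272 and 4.60 ± 1.51 FPKM on average in Ednrb-/- and WT caudal libraries (SD, n = 4 each; interaction -1.27 ± 0.27, adjusted p = 0.0136).

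Kera (keratocan), a keratan sulphate proteoglycan of tendon and cornea, had 0.353, 0.175, 0.559 and 0.0652 FPKM in Ednrb-/- trunk and 1.92, 2.45, 1.34 and 1.85 FPKM in WT trunk libraries. It was near 0 in the caudal region, at most 0.0246 FPKM in Ednrb-/- and 0.167 FPKM in WT libraries, so no fall could be measured there. The interaction of Kera (-1.47 ± 0.26, adjusted p = 0.00619) was not called with a pseudocount of 0.1 (adjusted p = 0.0526) or with voom (-0.82, adjusted p = 0.787). Sim2, a bHLH-PAS factor of muscle precursors, was likewise low in the caudal region, with 0.696, 0.642, 0.988 and 0.346 FPKM in Ednrb-/- trunk and 1.69, 2.21, 1.67 and 1.86 FPKM in WT trunk libraries (trunk effect -1.03). Capn6, a calpain without protease activity made in embryonic mesenchyme, had a trunk effect of -0.87 and an interaction of -1.16 ± 0.27, whose adjusted p was 0.0219, and 0.0511 without Ednrb-/- caudal replicate 4. Of 32 matrix genes other than collagens, 20 fell in the trunk and 17 in the caudal region (13% and 19.9% of all genes tested). Among the 32, 1 positive and 4 negative interactions were called (15.6%, against 6.76% of all genes tested). Collagens fell in both regions (13 and 14 of 21) and gave 1 call (4.76%).

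Genes called in both regions with the same sign differed in size. Of these 145 genes, 112 had a positive interaction, with median effects of -0.41 in the trunk and -1.10 in the caudal region. Neuronal genes were among them: Robo3, a receptor that lets commissural axons cross the midline, had 11.3, 10.7, 11.7 and 10.5 FPKM in Ednrb-/- trunk and 12.1, 16.7, 18.99 and 17.1 FPKM in WT trunk libraries, against 3.55, 1.91, 4.21 and 2.44 FPKM in Ednrb-/- caudal and 14.9, 13.5, 17.5 and 15.8 FPKM in WT caudal libraries. The genotypes were apart in both regions, with effects of -0.52 in the trunk and -2.22 in the caudal region (interaction 1.71 ± 0.24, adjusted p = 0.00249). Slc17a6, the vesicular glutamate transporter of excitatory neurons, had effects of -1.14 in the trunk and -2.68 in the caudal region, and Scrt1, a repressor of newly formed neurons, of -0.61 and -1.81. Nfia, a nuclear factor that switches progenitors towards glia, fell by 0.60 in the trunk and 1.65 in the caudal region.

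Genes of the sarcomere, the contractile unit of muscle, fell in both regions, further so in the caudal region. Of 18 tested, 12 fell in the trunk and 17 in the caudal region (13% and 19.9% of all genes tested). A positive interaction was called for 12 (66.7%, against 3.78%) and a negative one for none, 10 of the calls in the class of the same direction. The list summed to 429.8 to 459.9 FPKM in Ednrb-/- trunk, 566.8 to 692.8 FPKM in WT trunk, 145.6 to 206.0 FPKM in Ednrb-/- caudal and 345.9 to 374.3 FPKM in WT caudal libraries. Myh3, the embryonic myosin heavy chain, had 42.6, 42.4, 45.6 and 44.9 FPKM in Ednrb-/- trunk and 53.9, 60.2, 53.9 and 58.2 FPKM in WT trunk libraries, against 12.0, 8.61, 15.6 and 11.6 FPKM in Ednrb-/- caudal and 30.1, 30.9, 31.0 and 34.0 FPKM in WT caudal libraries. The genotypes were apart in both regions, with effects of -0.36 in the trunk and -1.39 in the caudal region (interaction 1.03 ± 0.16, adjusted p = 0.0036). Tnnc1, the troponin C of slow muscle and heart, had effects of -0.51 and -1.37, and Mef2c, a muscle and heart transcription factor outside the list, of -0.25 and -0.79. Mylpf, a light chain of fast myosin, was called in the caudal region alone (-1.19), with a trunk effect of -0.15 (95% interval -0.44 to 0.13). Under the other scalings 11 to 15 were called, all positive. The calls numbered 7 without Ednrb-/- trunk 1 or WT trunk 1, and 8 to 14 without any 1 other library. Myh7, the slow myosin of heart and muscle, was the 1 gene called of 5 heart genes tested (0.17 in the trunk, -1.02 in the caudal region), and the 12 heart genes summed to at most 13.54 FPKM in any library.

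Factors of the MyoD family bind the E-box CAGCTG, and the promoter of Mylpf holds 1, while that of Myh3 holds none. The 300 bases around the annotated start of Mylpf, 250 before and 50 from the start on, are shown with that motif in capitals (RefSeq on GRCm38.p6, chr7:127211358-127211657, plus strand).
Mylpf: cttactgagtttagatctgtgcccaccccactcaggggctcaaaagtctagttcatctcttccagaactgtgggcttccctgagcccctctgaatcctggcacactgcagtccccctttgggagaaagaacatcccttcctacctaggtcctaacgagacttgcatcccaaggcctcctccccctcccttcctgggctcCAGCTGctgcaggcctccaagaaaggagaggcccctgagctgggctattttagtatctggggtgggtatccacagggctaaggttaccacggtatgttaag
The motif, the same on both strands, occurred in 10 of 21 promoters of sarcomere genes (47.6%) and in 4 of the 11 of called genes (36.4%), against 16.3% of 32851 promoters of the same length.

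Melanoblast genes fell in both regions, and the fall measured was larger in the caudal region, where WT levels were higher. Of 13 such genes 6 passed the filter, of which 4 fell in the trunk and 5 in the caudal region (13% and 19.9% of all genes tested). The interaction was called for 3 (50%, against 3.78%), all positive, of which 1 remained with a pseudocount of 0.1 or with voom. Pmel, the protein of melanosome fibrils, had 0.176, 0.137, 0.0749 and 0.141 FPKM in Ednrb-/- trunk and 0.522, 0.870, 0.693 and 0.512 FPKM in WT trunk libraries. Among caudal libraries it had 0.734, 0.432, 0.807 and 0.401 FPKM in Ednrb-/- and 3.48, 3.84, 3.48 and 3.63 FPKM in WT libraries. The genotypes were apart in both regions (trunk effect -0.85, caudal effect -1.93, interaction 1.07 ± 0.18, adjusted p = 0.00549). Dct (dopachrome tautomerase), an early melanoblast enzyme, had 0.285, 0.179, 0.183 and 0.135 FPKM in Ednrb-/- trunk and 0.556, 0.695, 0.445 and 0.207 FPKM in WT trunk libraries, against 0.309, 0.144, 0.371 and 0.185 FPKM in Ednrb-/- caudal and 1.38, 1.87, 1.60 and 1.68 FPKM in WT caudal libraries. Its trunk groups overlapped and its caudal groups did not, with effects of -0.47 and -1.51.

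The added 0.5 FPKM limits how far these low genes could fall in the trunk. With a pseudocount of 0.1 the interaction of Pmel was 0.78, and with voom on whole reads 0.43, and neither was called. Gpnmb, a melanosomal glycoprotein, had an interaction of 0.92 ± 0.17 that was not called with either setting (1.51 and 1.25). It entered the test through the WT caudal libraries alone and left it when any of them was left out. Dct (interaction 1.04 ± 0.22, adjusted p = 0.0128) kept its call in both settings. The 13 genes summed to 5.688 to 6.617 FPKM in Ednrb-/- trunk and 7.464 to 8.591 FPKM in WT trunk libraries, against 7.074 to 8.315 FPKM in Ednrb-/- caudal and 14.62 to 15.4 FPKM in WT caudal libraries.

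Mitf, the master factor of melanoblasts, is known to bind the motif CATGTG in the Dct promoter. That promoter is shown with the motif in capitals on either strand (RefSeq on GRCm38.p6, chr14:118052197-118052496, minus strand, 250 bases before and 50 from the start on).
Dct: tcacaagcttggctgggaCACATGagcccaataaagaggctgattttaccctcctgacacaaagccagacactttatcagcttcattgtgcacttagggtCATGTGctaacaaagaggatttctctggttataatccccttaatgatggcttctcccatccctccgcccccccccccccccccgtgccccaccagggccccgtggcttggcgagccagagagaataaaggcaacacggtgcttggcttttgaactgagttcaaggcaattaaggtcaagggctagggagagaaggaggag
It held 2 matches, and the promoter of Gpnmb held none. The motif occurred in 7 of 14 promoters listed for melanoblast genes (50%), against 14.2% of 32851 promoters of the same length. A match is a description of the letters and not a measured site.

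**Figure D4:**
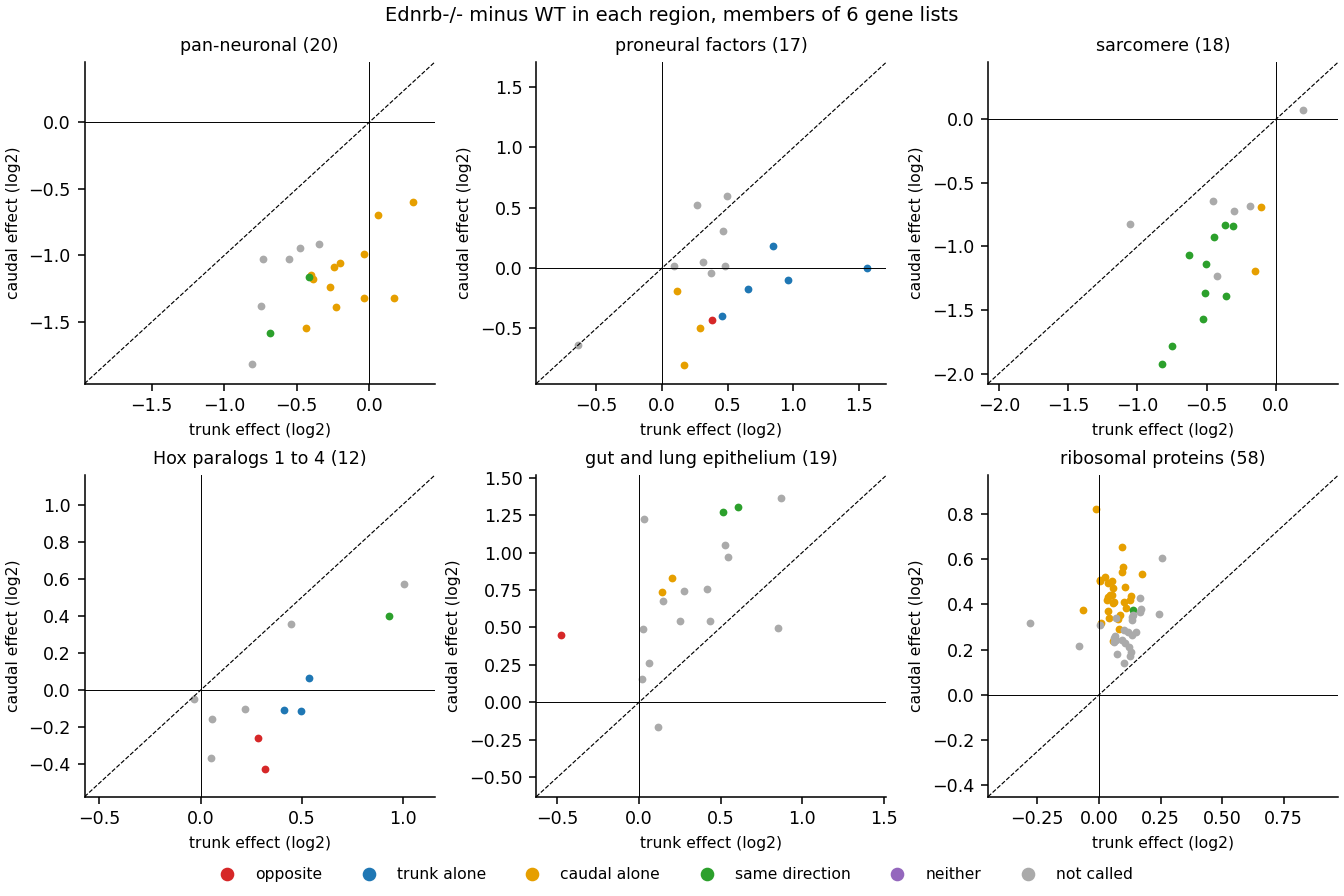
Genotype effect in the trunk (horizontal) and in the caudal region (vertical), both as Ednrb-/- minus WT on the log2(FPKM + 0.5) scale, for the tested members of 6 gene lists, coloured by class. Points below the dashed line of equal effects have a positive interaction: all 20 pan-neuronal genes lie below it and all 58 ribosomal protein genes above it.

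Some lists that moved with genotype in both regions gave no call for the interaction. Of 26 cell cycle genes, 23 rose in the trunk and 25 in the caudal region (12.2% and 21.7% of all genes tested). None of them was called for the interaction (1 under another scaling). Of 14 macrophage genes, 8 fell in the trunk and 13 in the caudal region (13% and 19.9% of all genes tested), and none was called. Other lists, whether or not they moved with genotype, gave small counts of calls. Some of their shares were above that of all genes tested (6.76%). No gene was called among 19 erythroid, 15 mitochondrially encoded, 16 p53 target, 6 liver, 6 interferon response and 5 endothelin genes tested. Neural progenitor domain genes gave 1 call among 23 (4.35%), BMP genes 1 of 27 (3.7%) and splanchnic and lung mesenchyme genes 1 of 19 (5.26%). Wnt genes gave 2 in each direction of 35 (11.4%). Presomitic mesoderm genes gave 1 positive and 2 negative calls of 17 (17.6%), surface ectoderm genes 1 and 2 of 18 (16.7%), and kidney and gonad genes 1 and 1 of 18 (11.1%). Endothelial and hedgehog pathway genes gave 2 negative calls each, of 20 (10%) and 18 (11.1%), and immediate early genes 2 positive calls of 15 (13.3%). Heterochronic genes, which time developmental stages, rose in both regions (14 of 20 in each) with 2 calls (10%). Without any 1 library, each of these counts of 1 or 2 lay between 0 and 4. A gene that was not called may still differ by less than these libraries can show: the median standard error of an interaction was 0.12 on the log2 scale.

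**Figure D5:**
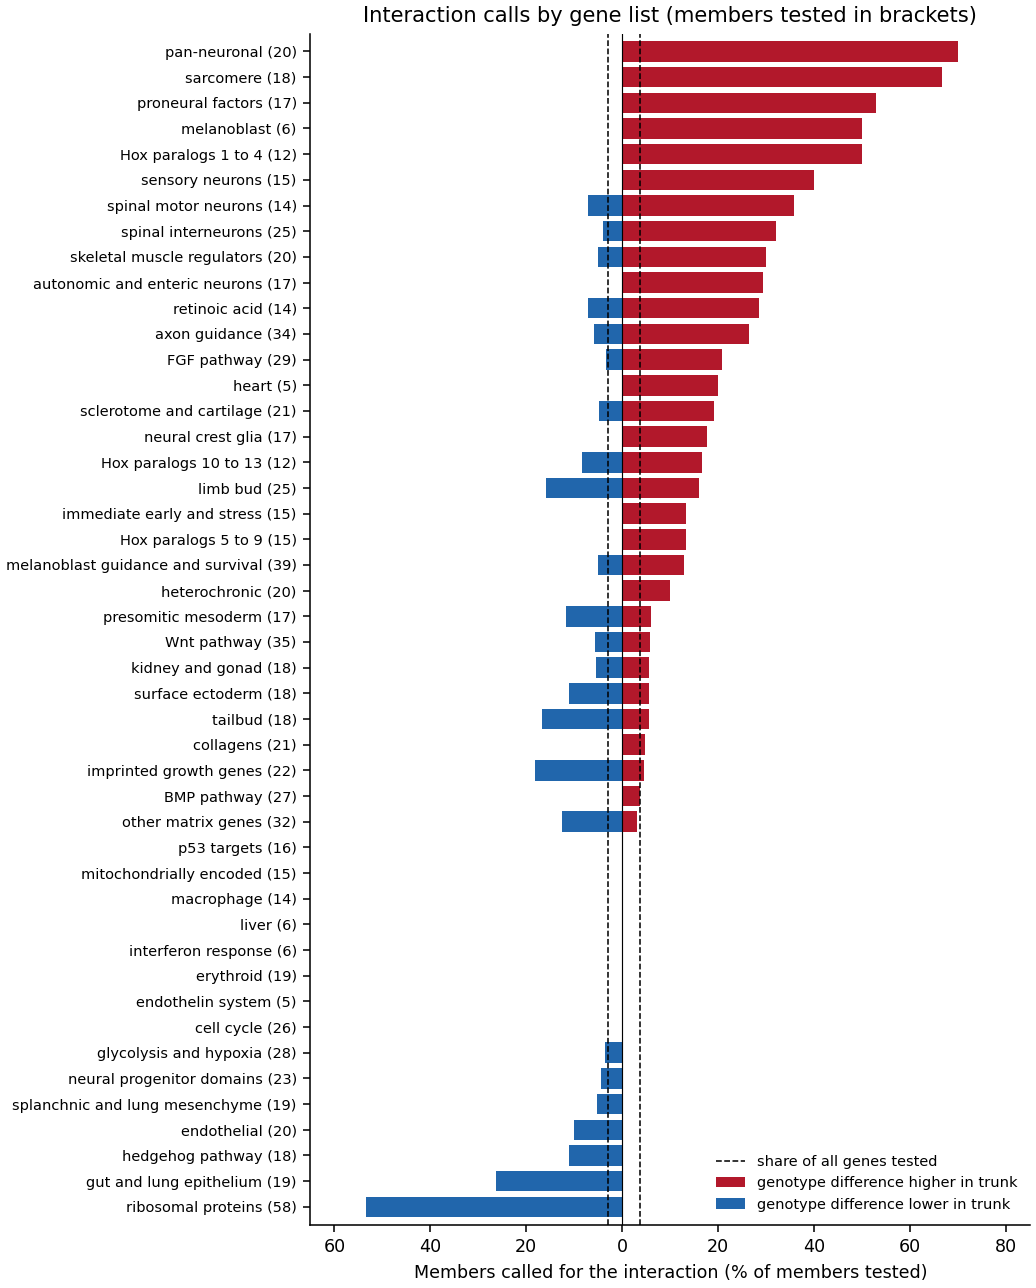
Share of the tested members of each gene list called for the interaction, to the right where the genotype difference was higher in the trunk and to the left where it was lower, with the number of members tested in brackets. The dashed lines mark 3.78% and 2.98%, the shares among all genes tested, and neuronal and sarcomere lists extend to the right while ribosomal protein genes extend to the left.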

How the data were processed

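Bulk RNA-seq of 16 mouse embryo samples was used, 4 in each of 4 groups taken from the sample labels. RNA was extracted with TRIzol, per the labels. The submitters' processing notes list fastp with no version, the aligner HISAT2 2.0.5, the read counter featureCounts 1.5.0-p3 and the mouse build mm39. Which annotation was used, whether strand was, and how reads with several matches were counted is not given in the sources. The authors deposited FPKM values per gene, with gene length beside them. FPKM times gene length gave whole multiples of 1 read, within 0.01, for 100% of values, from which reads per library were recovered.

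FPKM were transformed as log2(FPKM + 0.5), after a filter of 0.5 FPKM in 4 or more libraries. A fold on this scale understates the change of low genes. A limma 3.58.1 fit (R 4.3.3) with 4 group means and a trended prior variance gave the effect of genotype in each region and the interaction, with Benjamini-Hochberg adjustment over all 17205 genes and a threshold of 0.05; errors are SE of the fit or SD of 4 libraries, and 95% intervals are those of the fit. Genes were classed by whether each regional effect was itself called. A count test on the recovered reads (voom) called 1636 genes. No replicates agreed within sampling noise (chi-square per degree of freedom 5.461 to 16.07). The labels call the replicates biological and do not say how embryos were used, so p-values measure the spread between these samples.

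The genes named came from a rule: the largest effects in each class (up to 8 a direction, or 4 for the same direction), the genes of the endothelin system, and from each gene list as many as 4 by adjusted p. Some genes that the rule picked are not reported here. Among these the text prefers genes called in every fit that left out 1 library, a choice made after values were seen. Members and gene lists were chosen with earlier results of these data known. Alternatives covered the pseudocount, filter, scaling, voom, a replicate block, array weights, the prior, a sex term, chromosomes, the 3 libraries with both Xist and Ddx3y, the threshold and each library left out. The fit was checked on simulated data. Promoter sequences are from RefSeq on GRCm38.p6, matched by symbol; gene coordinates were not converted between builds.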

Additional observations from a re-analysis of the deposited data

Results flagged for a closer look

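The genotype effect differed between trunk and caudal region, by the limma test of the interaction (adjusted p under 0.05), for 80 of the 85 genes named in the account above. This count follows from the naming rule, which took only called genes apart from those of the endothelin system. Each value here is the effect of genotype in the trunk minus that in the caudal region on the log2(FPKM + 0.5) scale. Of genes called in both regions with opposite signs, positive values were 1.76 for Grm2, 1.37 for Fgf6, 1.32 for Ntng2, 1.23 for Clstn2, 0.91 for Pou2f2, 0.88 for Onecut2, 0.77 for Slc18a2, 0.75 for Hoxb9, 0.74 for Hoxa4 and 0.59 for Slit2. Negative values in the class of genes called in both regions with opposite signs were -0.93 for Foxa1, -0.81 for Pmp22, -0.79 for Wnt5a, -0.64 for Sil1, -0.63 for Rspo3 and -0.34 for Lamb1. Of genes called in the trunk alone, positive values were 1.77 for Myf6, 1.57 for Myf5, 1.56 for Atoh1, 1.45 for Hmx1, 1.44 for Sfrp5, 1.15 for Actn3, 1.06 for Neurod1, 0.83 for Neurog1, 0.61 for Hoxd3, 0.54 for Cxcl12, 0.53 for Etv4 and 0.52 for Foxp1. That class also held 0.47 for Hoxd4 and 0.37 for Stra6. Negative values in the class of genes called in the trunk alone were -1.47 for Kera, -1.35 for Hopx, -1.27 for Smoc2, -1.17 for Sim2, -1.16 for Capn6, -1.08 for Aldh1a3 and -0.98 for Robo2. Of genes called in the caudal region alone, positive values were 1.70 for Dbh, 1.53 for Pou4f3, 1.49 for Nefm, 1.43 for Pou3f1, 1.24 for Lhx9, 1.24 for Ncan, 1.19 for Myh7, 1.11 for Stmn2, 1.07 for Lhx1, 1.04 for Mylpf, 1.02 for Hoxc12 and 0.97 for Nhlh2. That class also held 0.97 for L1cam, 0.91 for Epha3, 0.90 for Cntn2, 0.88 for Slc5a7, 0.86 for Pax1, 0.77 for Chat, 0.75 for Itga4 and 0.71 for Pax9. Negative values in the class of genes called in the caudal region alone were -2.19 for Pitx1, -2.15 for Tbx4, -1.39 for Ripply1, -1.36 for Wfikkn1, -1.03 for Nkx1-2, -0.86 for Dlk1, -0.83 for Rps29, -0.60 for Epcam, -0.46 for Rps23, -0.43 for Higd1a and -0.39 for Rpl32. Of genes called in both regions with the same sign, positive values were 1.71 for Robo3, 1.54 for Slc17a6, 1.20 for Scrt1, 1.07 for Pmel, 1.05 for Nfia, 1.04 for Dct, 1.03 for Myh3, 0.92 for Gpnmb, 0.86 for Tnnc1, 0.74 for Gap43 and 0.53 for Mef2c. Negative values in the class of genes called in both regions with the same sign were -1.14 for Olig2.

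In groups of 4 libraries, 1 library stood far from the other 3 in 17 of 360 groups examined (4.72%), where chance alone gives about 1 in 20. Among genes rising or falling in the trunk alone, Sfrp5 reached 2.04 FPKM in Ednrb-/- trunk replicate 4, Stra6 was at 9.56 FPKM in WT trunk replicate 3, Hmx1 at 2.58 FPKM in WT caudal replicate 3 and Kera at 0.0246 FPKM in Ednrb-/- caudal replicate 3, where the other 3 libraries listed 0. Tbx4, called in the caudal region alone, was high in WT trunk replicate 1 (0.91 FPKM). In the same class Mylpf was high in WT caudal replicate 3 (53.66 FPKM) and Rps23 low in WT caudal replicate 1 (330.4 FPKM). Among genes with opposite signs, Pmp22 was low in Ednrb-/- trunk replicate 2 (7.86 FPKM), Foxa1 low in WT trunk replicate 1 (0.954 FPKM), Clstn2 high in WT caudal replicate 1 (8.99 FPKM) and Wnt5a high in WT caudal replicate 2 (11.47 FPKM). Scrt1 and Olig2 were high in Ednrb-/- trunk replicate 4 (6.76 and 1.54 FPKM) and Gpnmb high in Ednrb-/- caudal replicate 3 (0.12 FPKM). Edn1, not called for the interaction, was low in Ednrb-/- trunk replicate 2 (0.774 FPKM). Of the measures of whole libraries, hemoglobin genes took 0.256% of reads in Ednrb-/- trunk replicate 1, below the other 3, and WT trunk replicate 4 had more reads than the other 3, at 43444905.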

How the results depend on the processing

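No call of a gene named above reversed in sign under any alternative: of 2878 comparisons of 85 genes, 2756 kept their side of the threshold and 122 lost the call. Ece1 and Edn1, which were not called, did change sign, with interactions of -0.12 to 0.03 and -0.21 to 0.12 over the alternatives. Of the 80 called genes, 75 were called in every fit that left out 1 library. Both counts are shaped by the preference for such genes in the text, and do not describe all called genes. All 1163 called genes kept their sign under the other scalings, except that quantile normalization kept 1161. The numbers called depended more on the setting. Without a filter, 571 genes were called (334 positive, 237 negative; 37 opposite, 128 trunk alone, 364 caudal alone, 41 same direction), and with an adjusted p under 0.01, 217 (125 positive, 92 negative; 12 opposite, 45 trunk alone, 150 caudal alone, 8 same direction). An interaction of at least 1 on the log2 scale left 121 (88 positive, 33 negative; 9 opposite, 22 trunk alone, 70 caudal alone, 18 same direction). TPM gave 1130 positive, 299 negative and 97 opposite calls. Voom on whole reads gave 1187 positive calls and 378 in the same direction, and with median-of-ratios totals, a setting chosen after seeing the data, 1014 and 339. The cause was not tested, beyond the stricter threshold itself. Counting opposite signs whatever the regional calls gave 616 genes.

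Leaving out 1 library gave 583 to 1484 calls, 340 to 831 positive and 243 to 653 negative. By class the ranges were 45 to 89 opposite, 109 to 212 trunk alone, 364 to 926 caudal alone and 56 to 248 same direction. The lowest count of the trunk alone, the caudal region alone and all calls came without Ednrb-/- caudal replicate 4, of the opposite class without WT trunk replicate 2 and of the same direction without Ednrb-/- trunk replicate 1. The replicate numbers showed no clear pairing of the samples. Over 24 pairs of same-numbered libraries the correlation of deviations from the group means was -0.0836 to 0.109. It was over 0.1 in 1 pair, and a sample correlated best with its own number in 5. Most of these pairs joined different genotypes, which cannot share an embryo. Between trunk and caudal libraries of the same genotype the correlation was -0.0362 to 0.109, so a weak pairing is not excluded. With the replicate number as a block, 1128 genes were called. Tbx4, Kera, Hoxc12, Olig2, Pmel and Gpnmb were not called with voom, nor Kera, Olig2, Pmel and Gpnmb with a pseudocount of 0.1. Genes near the filter are limited by depth and by the pseudocount, which shortens folds of low genes.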

Other observations

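Calls for the interaction were spread over the genome, at 5.47% to 8.82% of the genes tested on each autosome and on X. None of the tested genes of the Y chromosome or the mitochondrial genome was called. Within 10 Mb of Ednrb on chromosome 14, 4 of 33 genes tested were called (12.1%, against 6.76% of all genes tested). Genes called in both regions with the same sign and a negative interaction numbered 33, with median effects of 0.13 in the trunk and 0.36 in the caudal region.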
